A study of Mus musculus with 18 samples.

Results

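The genes described here are 10 genes of the ATF4 and amino acid stress response: Atf4, Chac1, Asns, Phgdh, Psat1, Slc7a11, Ddit3, Ddit4, Sesn2 and Trib3. They were chosen by name, with earlier results of these data known. A gene entered when a feature of the array carried its symbol in the platform annotation. Of the 10 genes, 9 were measured, each by 1 feature, among 16887 genes and 22575 features in all, and Trib3 was not analysed here. The tumours were primary mammary tumours of mice, and the titles give FVB (an inbred mouse strain), MMTV (the mammary tumour virus promoter, active mainly in mammary epithelium) and Wnt1 for every tumour. There were 4 groups: Wnt1_iFGFR1 (n = 4), Wnt1_iFGFR2 (n = 4), Wnt1_iR2 (n = 4) and Wnt1 (n = 6), called iFGFR1, iFGFR2, iR2 and Wnt1 tumours below. Wnt1 is therefore shared by all 18 tumours, and iFGFR1, iFGFR2 and iR2 name what is added to it. The names iFGFR1 and iFGFR2 point to FGF receptors 1 and 2, while the labels spell out none of the 3 names and give no age, treatment or dose. The series title presents the study as one of FGF receptor and Wnt1 cooperation in mammary tumours.

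Each array held Cy5-labelled tumour RNA and Cy3-labelled RNA of 1 kind of whole-mouse reference. Every value is a deposited log ratio, read as log2 and as tumour over reference, so a value of 0 is the level in whole-mouse RNA and not an absence of the transcript. Ratios to a reference do not allow the level of one gene to be set against that of another. Some genes of luminal mammary epithelium stood far above the reference over all 18 arrays (mean log2 ratio of 3.22 for Krt18, 3.51 for Elf5 and 2.46 for Epcam). Others stood lower, with means of 1.34 and 1.13 for Krt19 and 0.75 and 0.74 for Cdh1 in iFGFR1 and iFGFR2 tumours. The high luminal genes were used with the dyes to read the direction, so they are no separate check of the tissue label. Wnt1 replicate 3 and iFGFR2 replicate 1 were singled out after their values were seen, by no fixed rule, and results that rest on them are given with and without them. Wnt1 replicate 3 had a mean correlation of 0.747 with the other Wnt1 arrays, the lowest in that group, and of 0.816 with the iR2 arrays. For iFGFR2 replicate 1 the mean correlation with its own group was 0.727 and the interquartile range of 1.231 was the widest of all arrays. Other arrays showed like signs: iFGFR1 replicate 4 had the lowest correlation with its own group of all 18 (0.722), and iFGFR1 replicate 2 and all 4 iFGFR2 arrays correlated more with the iR2 arrays than with their own group. Each of the 18 arrays was therefore also left out in turn.

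ATF4 is a transcription factor of the integrated stress response. Amino acid shortage, endoplasmic reticulum (ER) stress, haem shortage or viral RNA activates kinases that phosphorylate the initiation factor eIF2, which lowers general protein synthesis and raises translation of the Atf4 mRNA. ATF4 protein then switches on genes for amino acid synthesis and uptake, for charging of transfer RNAs and for glutathione turnover, and, when stress lasts, the factor CHOP (the product of Ddit3). An array of mRNA does not measure the translation of Atf4, its protein or the activity of these kinases.

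ATF4 binds its target genes as a dimer with C/EBP proteins at a composite element whose letters, TGATGNAA, were searched on both strands in RefSeq promoter windows of GRCm38.p6, from 250 bases before to 50 bases after each start site. All 9 measured genes had a window, and 3 of them (33.3%), Chac1, Asns and Slc7a11, held the element, against 3.97% of all 32851 windows and 3.52% of the 13425 measured genes with a window. The 3 are printed because they place the element in promoters whose genes did not move alike in the tumours: Chac1 and Asns rose in iFGFR1 tumours and Slc7a11 was not called. Capitals mark the element, and each line is 5′ to 3′ on the gene's own strand. Chac1, on the plus strand at chr2:119350992-119351111, covers positions -250 to -131 and holds the element from -193 to -186, in reverse orientation. Asns, on the minus strand at chr6:7693210-7693329, covers positions -120 to -1 and holds it from -23 to -16. Slc7a11, on the minus strand at chr3:50443614-50443733, covers positions -120 to -1 and holds it at -66 to -59 and, in reverse orientation, at -47 to -40; its start site here is not the outermost one that RefSeq gives the gene.
Chac1: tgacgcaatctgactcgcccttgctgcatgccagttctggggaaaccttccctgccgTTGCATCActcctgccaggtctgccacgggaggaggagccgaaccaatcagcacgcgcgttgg
Asns: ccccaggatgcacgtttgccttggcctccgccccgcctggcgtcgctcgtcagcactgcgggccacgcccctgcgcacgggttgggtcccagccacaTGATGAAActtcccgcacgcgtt
Slc7a11: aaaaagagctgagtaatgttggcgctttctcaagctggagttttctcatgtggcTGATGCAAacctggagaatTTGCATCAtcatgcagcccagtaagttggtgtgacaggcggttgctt
The windows of Atf4, Phgdh, Psat1, Ddit3, Ddit4 and Sesn2 did not hold these letters. The element was found in 2.9% of the 1136 genes with a window that were higher in iFGFR1 than in Wnt1 tumours and in 3.36% of the 923 that were lower, both near the share over all measured genes. A match is a description of the letters and not evidence of binding.

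Tested over the 4 groups at once (F test in limma, Benjamini-Hochberg adjusted p under 0.05), 5 of the 9 genes passed, beside 19.6% of all genes. They were Atf4 and 4 genes that it is known to switch on, Chac1, Asns, Phgdh and Psat1. All 5 were higher in iFGFR1 than in Wnt1 tumours. Slc7a11, Ddit3, Ddit4 and Sesn2 were not called. The labels do not say whether replicates are separate animals, so p-values measure the spread between these tumours, part of which may be technical. In bulk tumour RNA, fewer cells of a type and less RNA per cell cannot be told apart.

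**Figure D1:**
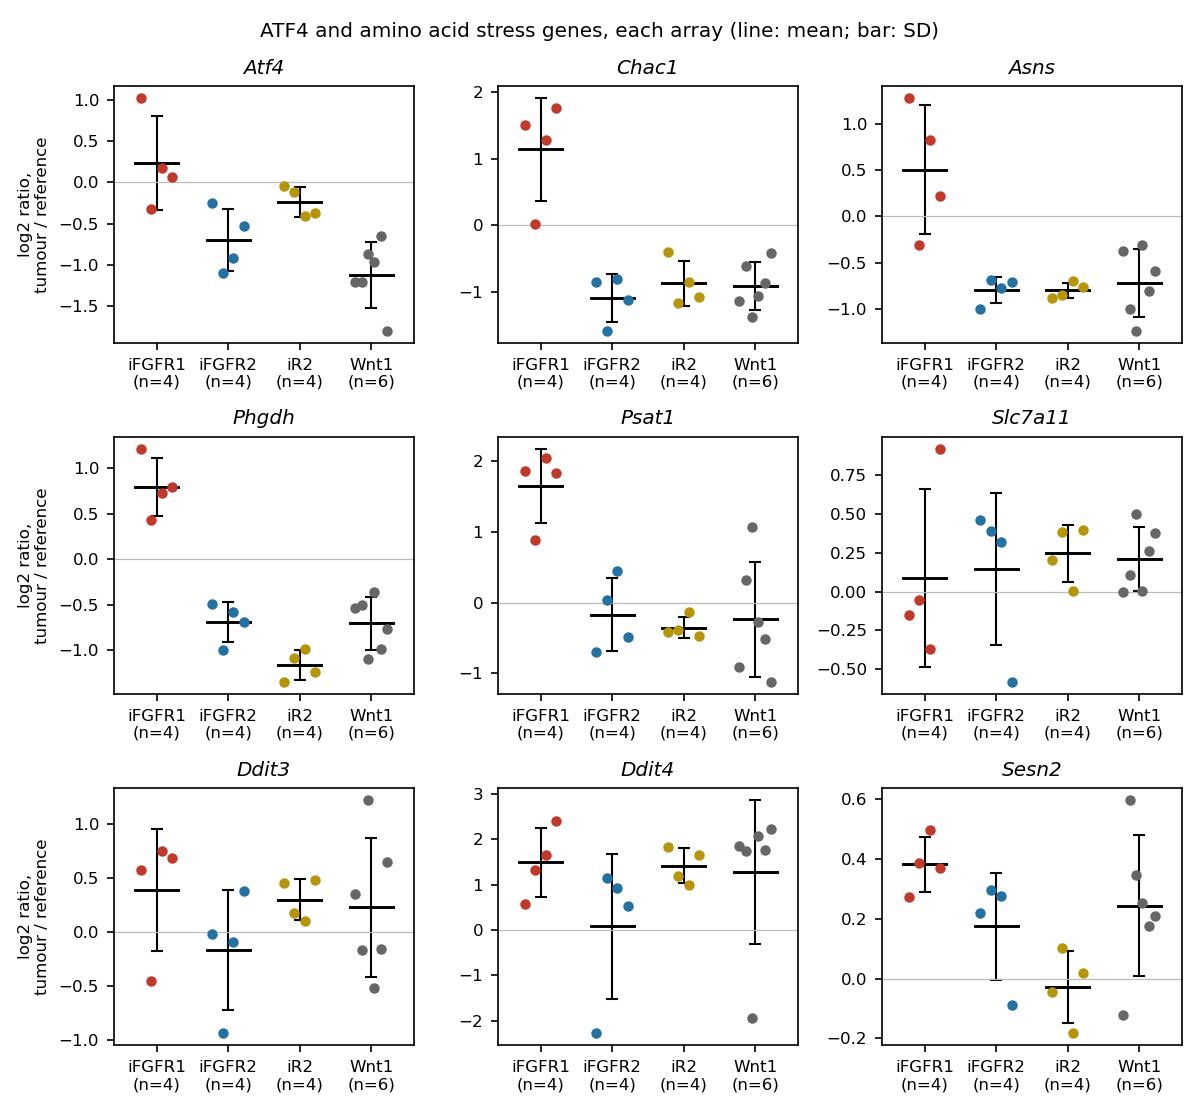
Log2 ratio of tumour over whole-mouse reference RNA for each of the 9 measured genes on each array (1 point per array; line, group mean; bar, SD), by tumour group. In Chac1 and Phgdh the 4 iFGFR1 arrays lie above every other array, in Atf4 the iFGFR1 and iR2 arrays all lie above the Wnt1 arrays, and Ddit4 has 1 far lower array in each of the iFGFR2 and Wnt1 groups.

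Atf4 itself was at 1.03, -0.32, 0.17 and 0.06 in the 4 iFGFR1 tumours, at -0.26, -1.10, -0.91 and -0.53 in the iFGFR2 tumours and at -0.05, -0.11, -0.41 and -0.38 in the iR2 tumours. In Wnt1 tumours the lowest value was -1.81, the median -1.09 and the highest -0.65. All iFGFR1 and all iR2 tumours lay above the highest Wnt1 tumour, and the iFGFR2 tumours overlapped the Wnt1 range. Group means followed the order iFGFR1 (0.23 ± 0.57), iR2 (-0.24 ± 0.18), iFGFR2 (-0.70 ± 0.38) and Wnt1 (-1.12 ± 0.40; SD). Neighbours in this order overlapped, and neither iFGFR1 minus iR2 (0.47, 95% confidence interval -0.11 to 1.05, adjusted p = 0.296) nor iR2 minus iFGFR2 (0.46, -0.11 to 1.04, adjusted p = 0.46) passed the test, nor did iFGFR2 minus Wnt1 below. Atf4 rose 2.55-fold in iFGFR1 tumours against Wnt1 tumours (difference 1.35, SE 0.25, adjusted p = 0.00147).

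Chac1 encodes an enzyme that degrades glutathione and is a known target of ATF4. Its values were 1.51, 0.02, 1.28 and 1.76 in iFGFR1 tumours, -0.85, -1.59, -0.81 and -1.13 in iFGFR2 tumours and -0.40, -1.17, -0.86 and -1.07 in iR2 tumours. In Wnt1 tumours the lowest was -1.37, the median -0.97 and the highest -0.42. The 4 iFGFR1 tumours were above the whole-mouse reference and above every other tumour, and the other 3 groups overlapped one another. Against Wnt1 tumours Chac1 rose 4.15-fold in iFGFR1 tumours (difference 2.05, SE 0.29, adjusted p = 0.00011).

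Asns makes asparagine from aspartate and is a textbook target of ATF4 under amino acid shortage. Asns was at 1.28, -0.31, 0.82 and 0.23 in iFGFR1 tumours, at -1.0, -0.69, -0.78 and -0.71 in iFGFR2 tumours and at -0.88, -0.85, -0.70 and -0.77 in iR2 tumours. The Wnt1 tumours had a lowest value of -1.24, a median of -0.70 and a highest of -0.31. Replicate 2 of iFGFR1 stood level with the highest Wnt1 tumour and the other iFGFR1 tumours stood above all of them. The increase in iFGFR1 against Wnt1 tumours was 2.34-fold (difference 1.22, SE 0.25, adjusted p = 0.00275).

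Phgdh and Psat1 encode the opening steps of serine synthesis from a glycolytic intermediate. Phgdh was at 1.21, 0.43, 0.72 and 0.80 in iFGFR1 tumours, at -0.49, -0.99, -0.58 and -0.69 in iFGFR2 tumours and at -1.35, -1.09, -0.98 and -1.23 in iR2 tumours. The lowest, median and highest Wnt1 tumours were at -1.09, -0.65 and -0.36. All iFGFR1 tumours were above the reference and all other tumours below it. Phgdh rose 2.82-fold in iFGFR1 against Wnt1 tumours (difference 1.49, SE 0.19, adjusted p = 4.52e-05), the smallest adjusted p among the 9 genes.

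Psat1 was at 1.86, 0.88, 2.04 and 1.83 in iFGFR1 tumours, at -0.70, 0.04, 0.45 and -0.48 in iFGFR2 tumours and at -0.41, -0.39, -0.14 and -0.47 in iR2 tumours. The Wnt1 tumours ran between -1.13 and 1.07 with a median of -0.39. The highest Wnt1 value belonged to Wnt1 replicate 3, and it was the 1 Wnt1 array above the lowest iFGFR1 array. Psat1 rose 3.71-fold in iFGFR1 against Wnt1 tumours (difference 1.89, SE 0.35, adjusted p = 0.00128), and the difference was 2.15 without Wnt1 replicate 3.

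In iFGFR1 against Wnt1 tumours 5 of the 9 genes were therefore higher and none lower, beside 8.38% of all genes higher and 7.06% lower. The median difference over the 9 genes was 1.22, against 0.02 over all genes, and 8 of the 9 differences were above 0. The same 5 genes passed with each of the 18 arrays left out in turn and under every other setting run. Replicate 2 was the lowest iFGFR1 tumour for all 5 genes. Without replicate 2 the Chac1 difference was 2.43, and the lowest left-out value for Chac1 was 1.85.

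Slc7a11, the cystine transporter that feeds glutathione synthesis, was at -0.15, -0.05, -0.37 and 0.92 in iFGFR1 tumours, at 0.46, 0.39, 0.32 and -0.58 in iFGFR2 tumours and at 0.20, 0.38, 0.00 and 0.40 in iR2 tumours. Its Wnt1 range was 0.00 to 0.50 with a median of 0.18. iFGFR1 tumours lay on both sides of the Wnt1 range, 3 below it and replicate 4 above it. The iFGFR1 minus Wnt1 difference was -0.12 (95% confidence interval -0.62 to 0.38, adjusted p = 0.777), an interval that leaves out a rise as large as that of Atf4, Chac1, Asns, Phgdh or Psat1.

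Ddit3, which encodes the factor CHOP, was at 0.58, -0.46, 0.74 and 0.68 in iFGFR1 tumours, at -0.02, -0.94, -0.10 and 0.38 in iFGFR2 tumours and at 0.45, 0.17, 0.10 and 0.48 in iR2 tumours. The Wnt1 tumours covered -0.52 to 1.22 (median 0.09), a span that held every iFGFR1 and iR2 tumour. The iFGFR1 minus Wnt1 difference was 0.16 (-0.50 to 0.82, adjusted p = 0.781).

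Ddit4 and Sesn2 encode inhibitors of the growth kinase complex mTORC1. Ddit4 was at 0.58, 1.32, 1.66 and 2.40 in iFGFR1 tumours, at -2.28, 1.15, 0.94 and 0.53 in iFGFR2 tumours and at 1.84, 1.19, 0.996 and 1.66 in iR2 tumours, with a Wnt1 lowest of -1.93, median of 1.81 and highest of 2.21. The 2 low values were those of iFGFR2 replicate 1 and Wnt1 replicate 3, the arrays singled out above. The iFGFR1 minus Wnt1 difference was 0.20 (-1.25 to 1.65, adjusted p = 0.878), and it was -0.44 without Wnt1 replicate 3. Sesn2 spanned 0.27 to 0.50 in iFGFR1, -0.09 to 0.29 in iFGFR2, -0.18 to 0.10 in iR2 and -0.12 to 0.60 in Wnt1 tumours, and its iFGFR1 minus Wnt1 difference was 0.14 (-0.19 to 0.47, adjusted p = 0.599).

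**Figure D2:**
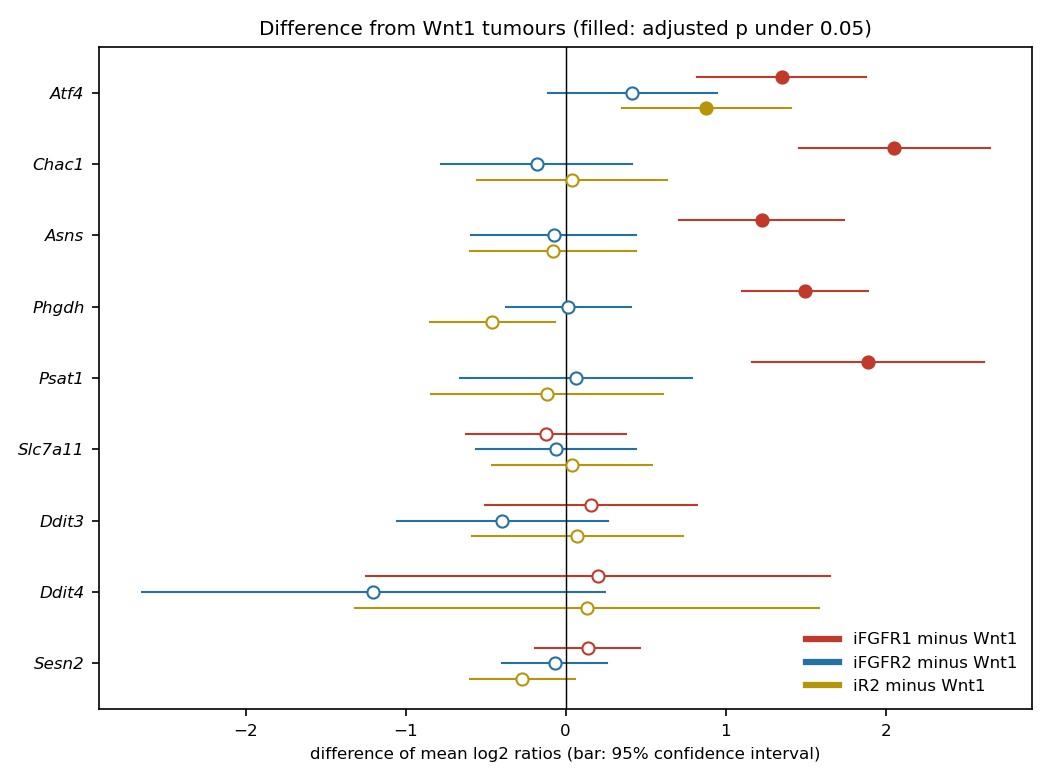
Difference of mean log2 ratios from Wnt1 tumours for the 9 genes in iFGFR1, iFGFR2 and iR2 tumours, from the limma fit over 18 arrays (point, difference; bar, 95% confidence interval; filled, adjusted p under 0.05). Filled points are Atf4, Chac1, Asns, Phgdh and Psat1 for iFGFR1 and Atf4 alone for iR2, and the widest intervals are those of Ddit4.

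In iFGFR2 against Wnt1 tumours 0 of the 9 genes passed limma's test, beside 1.97% of all genes higher and 1.46% lower. At an unadjusted p under 0.05 there were 0 of the 9, beside 3524 of all 16887 genes. Atf4 differed by 0.42 (-0.11 to 0.94, adjusted p = 0.36), and 2 of its 4 iFGFR2 arrays were above every Wnt1 array. The differences of Chac1 (-0.18, -0.78 to 0.42), Phgdh (0.02, -0.38 to 0.41) and Psat1 (0.06, -0.66 to 0.79) had intervals whose upper ends lay below the iFGFR1 minus Wnt1 differences of the same genes. Ddit4 had the largest difference of the 9, -1.20 (-2.65 to 0.25, adjusted p = 0.336). It depended on the 2 arrays singled out above: without Wnt1 replicate 3 it was -1.85 and passed (adjusted p = 0.0294), and without iFGFR2 replicate 1 it was -0.42 (adjusted p = 0.805).

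In iR2 against Wnt1 tumours Atf4 was the 1 gene of the 9 that passed, beside 3.91% of all genes higher and 3.19% lower. It rose 1.84-fold (difference 0.88, SE 0.25, adjusted p = 0.0393), with all 4 iR2 arrays above every Wnt1 array. Chac1 (0.04, -0.56 to 0.64), Asns (-0.08, -0.59 to 0.44) and Psat1 (-0.12, -0.84 to 0.61) were not called, and Phgdh was lower without passing (-0.46, -0.85 to -0.06, adjusted p = 0.145). The Atf4 call was lost without Wnt1 replicate 1, 2, 4 or 6 or without any 1 of the iR2 arrays, with differences of 0.74 to 0.97 and adjusted p of 0.0219 to 0.122 over the 18 arrays left out in turn. The 4 iR2 arrays and Wnt1 replicate 3 had the narrowest spread of values of all arrays (interquartile range 0.769 to 0.8445, against at least 0.874 elsewhere). A term for these 5 arrays leaves Wnt1 replicate 3 as the only Wnt1 array that iR2 is compared with, and the Atf4 difference was then 0.63.

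Set against Wnt1 tumours, the mean of the 3 receptor groups was higher for Atf4 (0.88, SE 0.20, adjusted p = 0.00705), with 10 of 12 arrays above every Wnt1 array. Atf4 was the 1 gene of the 9 called there, beside 6.9% of all genes higher and 5.62% lower. Chac1 (0.64, adjusted p = 0.0646) and Psat1 (0.61, adjusted p = 0.143) did not pass.

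The receptor groups were then compared with each other in the same fit, where the Wnt1 arrays do not enter the differences but do enter the estimate of the spread. Between iFGFR1 and iFGFR2 tumours 4 of the 9 genes were higher and none lower, beside 0.924% of all genes higher and 1.21% lower. Chac1 differed by 2.23 (SE 0.31, adjusted p = 0.000692), Asns by 1.3 (SE 0.27, adjusted p = 0.014), Phgdh by 1.48 (SE 0.21, adjusted p = 0.000692) and Psat1 by 1.83 (SE 0.38, adjusted p = 0.0139). For each of these 4 genes all iFGFR1 arrays were above all iFGFR2 arrays, which describes genes already picked by their calls. The share of all genes that separate in this way was not counted. Atf4 was higher by 0.93 (0.36 to 1.51) without passing (adjusted p = 0.0873). Without iFGFR1 replicate 3 the count was 2, since Asns (adjusted p = 0.0548) and Psat1 (adjusted p = 0.0519) then missed the threshold. With only the iFGFR1 and iFGFR2 arrays in the fit the count was 3, since Asns (adjusted p = 0.145) missed it.

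Between iFGFR1 and iR2 tumours the same 4 genes were higher and none lower, beside 6.84% of all genes higher and 4.81% lower. The differences were 2.01 for Chac1 (SE 0.31, adjusted p = 0.000468), 1.303 for Asns (SE 0.27, adjusted p = 0.00417), 1.95 for Phgdh (SE 0.21, adjusted p = 1.7e-05) and 2.01 for Psat1 (SE 0.38, adjusted p = 0.00215). All iFGFR1 arrays again lay above all iR2 arrays for each of the 4, which likewise describes genes picked by their calls, with no share of all genes counted. Sesn2 was also higher on all 4 iFGFR1 arrays (0.41, 0.05 to 0.77) but did not pass (adjusted p = 0.137). With the term for the 5 arrays of narrow spread, Chac1 (1.47, adjusted p = 0.167) and Asns (0.68, adjusted p = 0.548) lost their calls, while Phgdh and Psat1 stayed higher and Ddit4 was called lower. With the number in each tumour's title as a covariate, Asns (0.96, adjusted p = 0.235) and Psat1 (1.56, adjusted p = 0.169) lost theirs. With only the iFGFR1 and iR2 arrays in the fit all 4 passed. The comparisons of iFGFR1 with iFGFR2, iR2 and Wnt1 share the iFGFR1 arrays, and all comparisons with Wnt1 share the Wnt1 arrays.

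Between iR2 and iFGFR2 tumours none of the 9 genes passed limma's test, beside 0.272% of all genes higher and 1.07% lower. At an unadjusted p under 0.05 there was 1 of the 9 (Phgdh), beside 2600 of all 16887 genes. The widest differences were those of Ddit4 (1.34, adjusted p = 0.43), Phgdh (-0.47, -0.90 to -0.04, adjusted p = 0.269) and Atf4 (0.46).

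Atf4 was also set beside the mean log2 ratio of Chac1, Asns, Phgdh and Psat1. These 4 were put together because they were called higher in iFGFR1 tumours, so the height of their mean there follows from the choice and is given as a description with no test. The mean was 1.02 ± 0.53 in iFGFR1, -0.69 ± 0.17 in iFGFR2, -0.80 ± 0.10 in iR2 and -0.64 ± 0.14 in Wnt1 tumours (SD). Atf4 in the iR2 tumours was between -0.41 and -0.05, which includes the -0.32 of iFGFR1 replicate 2. That iFGFR1 tumour had a mean of 0.26 over the 4 genes, and the iR2 tumours had -0.89 to -0.67.

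**Figure D3:**
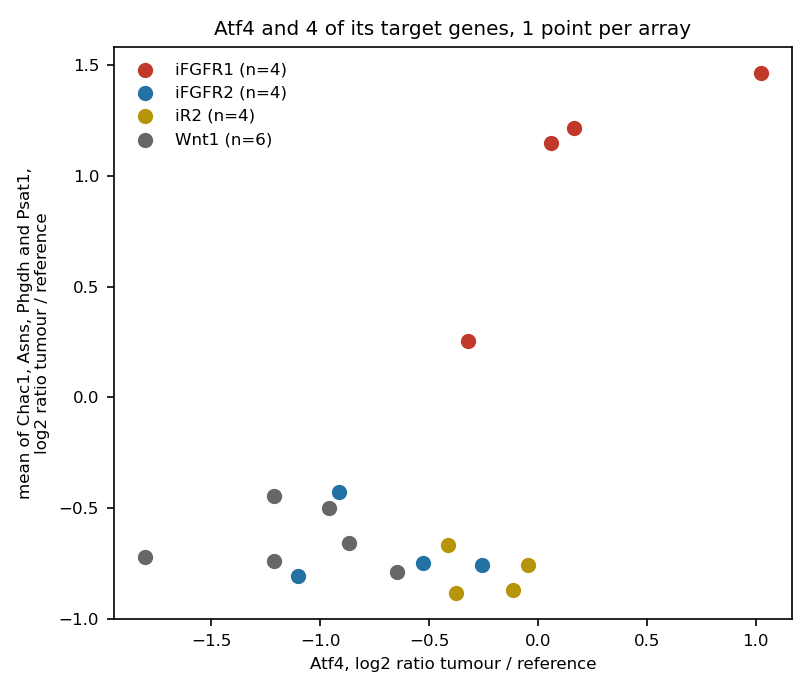
Mean log2 ratio of Chac1, Asns, Phgdh and Psat1 against the log2 ratio of Atf4, 1 point per array, coloured by tumour group. The 4 iFGFR1 arrays lie at means of 0.26 to 1.47, all other arrays lie below -0.42, and the iR2 arrays lie to the right of the Wnt1 arrays at about the same height.

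Within groups, after each group's mean was taken off, the 10 pairs among Atf4, Chac1, Asns, Phgdh and Psat1 had a median correlation of 0.28 over 18 arrays, with 8 pairs above 0, and the other 26 pairs had a median of -0.01. The highest was Asns with Phgdh (0.63) and the lowest Atf4 with Ddit4 (-0.48). These points share the arrays, the reference RNA and the 4 group means that were removed, and the correlations are given as a description.

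By the highest Pearson correlation with Atf4 over the 18 arrays, the 5 genes most like it were Cops3 (0.906), Mphosph10 (0.904), Acot9 (0.903), Lrrfip2 (0.902) and Rars (0.896). Rars encodes the arginyl-tRNA synthetase. The 5 most like Chac1 were Nipal1 (0.925), Car9 (0.914), Pold3 (0.897), Isg20 (0.894) and Xpo4 (0.884), and Car9 encodes a carbonic anhydrase induced by low oxygen. Within groups these correlations were 0.70 to 0.78 for Atf4 and 0.69 to 0.71 for Chac1. Rank correlations over the 18 arrays were 0.87 to 0.92 for Atf4 and lower for Chac1, from 0.43 (Pold3) to 0.75 (Car9). The genes were picked by their correlation over the same arrays, which in part fixes the within-group values, so all are given as a description.

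Other genes of the pathway were taken from lists and compared in the same fit, and their counts stand beside the shares of all genes given above for each comparison. Upstream of Atf4, 3 of 11 measured genes for eIF2 kinases, phosphatase adaptors and eIF2B were higher in iFGFR1 than in Wnt1 tumours and none was lower, beside 8.38% and 7.06% of all genes, with a median difference of 0.24. They were Ppp1r15a (0.97, SE 0.22, adjusted p = 0.00688), whose product GADD34 leads a phosphatase to eIF2, Eif2b5 (0.84, adjusted p = 0.0102), a subunit of the exchange factor for eIF2, and Eif2ak2 (0.87, adjusted p = 0.0164), the kinase PKR activated by double-stranded RNA. The Eif2ak2 call was lost without iFGFR1 replicate 3 or 4. The kinases that respond to haem (Eif2ak1, 0.07), ER stress (Eif2ak3, 0.11) and uncharged transfer RNA (Eif2ak4, 0.24) were not called. Ppp1r15a was at 0.24, -0.96, -0.51 and -0.66 in iFGFR1 tumours and at -0.24, -0.77, -0.69 and -0.84 in iR2 tumours. In Wnt1 tumours it was at -1.82 at the lowest, -1.41 at the median and -0.90 at the highest, so that iR2 tumours lay above every Wnt1 tumour and iFGFR1 replicate 2 did not. Ppp1r15a also rose in iR2 tumours against Wnt1 tumours (0.80, adjusted p = 0.0358), a call kept with 11 of 18 arrays left out in turn.

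Enzymes that load amino acids onto transfer RNAs followed. Of 19 cytosolic aminoacyl-tRNA synthetases 6 were higher in iFGFR1 than in Wnt1 tumours and none was lower (8.38% and 7.06% of all genes), 18 of the 19 differences were above 0, and the median was 0.53. Rars was at 1.42, 0.62, 1.01 and 1.11 in iFGFR1 tumours and between -0.70 and 0.33 in Wnt1 tumours, with no overlap (difference 1.34, SE 0.24, adjusted p = 0.00088). Kars (1.301, adjusted p = 0.00461), Farsb (1.31, adjusted p = 0.0154) and Cars (0.96, adjusted p = 0.0108), for lysine, phenylalanine and cysteine, also rose. The count depended on single arrays: it was 3 without iFGFR1 replicate 1, 10 without iFGFR1 replicate 2 and 9 without Wnt1 replicate 3. Farsb (1.46, adjusted p = 0.0176) and Kars (1.09, adjusted p = 0.0258) were the 2 of the list that rose in iR2 against Wnt1 tumours. None of the list passed in iFGFR2 tumours, where 2 of 19 had an unadjusted p under 0.05, beside 3524 of all 16887 genes. With arrays left out in turn Farsb kept its call 15 times in 18 and Kars 12 times in iR2 tumours, and in iFGFR1 tumours Farsb lost it without replicate 1.

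Of 15 amino acid transporters, 3 were higher and 3 lower in iFGFR1 than in Wnt1 tumours (median 0.14), beside 8.38% of all genes higher and 7.06% lower. Slc7a5 and Slc3a2 encode the light and heavy chains of the leucine and large neutral amino acid exchanger, and Slc7a3 a carrier of cationic amino acids. Slc7a5 was at 2.80, 2.66, 2.26 and 2.36 in iFGFR1 tumours and between 0.68 and 1.86 in Wnt1 tumours (difference 1.07, SE 0.25, adjusted p = 0.00683), with no overlap. Slc7a3 (1.57, adjusted p = 0.00296) and Slc3a2 (0.71, adjusted p = 0.015) rose with it. Slc6a6, the taurine transporter, fell in all receptor groups against Wnt1 tumours, by 0.998 in iFGFR1 (adjusted p = 0.00504), by 0.95 in iFGFR2 (adjusted p = 0.0252) and by 1.01 in iR2 tumours (adjusted p = 0.012), and kept the call in 18, 15 and 17 of 18 fits with an array left out. The other lower transporters, Slc7a6 (-0.55, adjusted p = 0.0473) and Slc36a1 (-0.80, adjusted p = 0.0492), lay near the threshold: the lower count was 1 without Wnt1 replicate 1, 2, 4 or 5, iFGFR1 replicate 1, 3 or 4, iFGFR2 replicate 3 or any iR2 array. Slc7a6 is named after its value was seen.

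Next to Phgdh and Psat1, 4 of 13 enzymes of serine, one-carbon, proline and transamination metabolism were higher in iFGFR1 than in Wnt1 tumours and none was lower (median 0.42), beside 8.38% of all genes higher and 7.06% lower. They were Got1, the cytosolic aspartate aminotransferase (1.20, SE 0.18, adjusted p = 0.000189), Aldh18a1, which opens proline synthesis (1.23, SE 0.22, adjusted p = 0.00102), and the serine hydroxymethyltransferases Shmt1 (1.11, adjusted p = 0.00275) and Shmt2 (0.88, adjusted p = 0.0162). Aldh18a1 was at 1.03, 1.05, 1.18 and 1.32 in iFGFR1 tumours and between -0.54 and 0.33 in Wnt1 tumours. Psph, the last step of serine synthesis (0.40, adjusted p = 0.277), and Mthfd2, a mitochondrial folate enzyme (0.68, adjusted p = 0.0853), did not pass. Against iFGFR2 tumours Mthfd2 was higher in iFGFR1 tumours by 1.47 (adjusted p = 0.00819). In iR2 against Wnt1 tumours Mthfd2 (-0.92, adjusted p = 0.0375) and Psph (-0.83, adjusted p = 0.0414) fell while Shmt1 rose (0.76, adjusted p = 0.0442), and Shmt1 was the 1 of the list that passed in iFGFR2 tumours (1.08, adjusted p = 0.0147). In iFGFR1 against iR2 tumours 6 of the 13 were higher and none lower, with a median of 0.74, beside 6.84% of all genes higher and 4.81% lower. Single arrays decided some of these calls: Shmt2 in iFGFR1 tumours was lost without iFGFR1 replicate 1 or 3, Shmt1 in iFGFR2 tumours without iFGFR2 replicate 1, and Mthfd2 and Psph in iR2 tumours kept theirs in 10 and 9 of 18 fits with an array left out.

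Of 19 other targets and partners of ATF4, 8 were higher in iFGFR1 than in Wnt1 tumours and none was lower (median 0.46), beside 8.38% of all genes higher and 7.06% lower. Eif4ebp1, a brake on cap-dependent translation, was at 0.81, -0.27, 0.76 and 0.84 in iFGFR1 tumours and between -2.49 and -0.93 in Wnt1 tumours. Ero1a, an oxidase of the ER (2.06, SE 0.42, adjusted p = 0.00282), Stc2, a secreted glycoprotein (1.45, SE 0.33, adjusted p = 0.00622), and Ppp1r15a were the others of smallest p. The partners Atf5 (0.69, adjusted p = 0.0117) and Cebpb (0.83, adjusted p = 0.0186) rose as well, and Atf3 did not pass (0.50, adjusted p = 0.22). Atf5 and Cebpb were also higher in iFGFR1 than in iFGFR2 tumours, by 1.01 and 1.02. Against Wnt1 tumours none of the list passed in iFGFR2 tumours (median 0.12). There 7 of 19 had an unadjusted p under 0.05, beside 3524 of all 16887 genes. In iR2 against Wnt1 tumours Ppp1r15a rose and Cebpg, another partner, fell by 0.93 (adjusted p = 0.0389). With arrays left out in turn, the higher Cebpb in iFGFR1 than in iFGFR2 tumours was kept in 9 of 18 fits, the higher Atf5 in all 18, and the lower Cebpg in 10.

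The ER arms of the stress response were described by 21 chaperone, IRE1 and ATF6 genes, of which 3 were higher in iFGFR1 than in Wnt1 tumours and none was lower (median 0.27), beside 8.38% of all genes higher and 7.06% lower. Hspa5, the chaperone BiP and a usual readout of ER stress, differed by -0.04 (adjusted p = 0.915). The 3 that rose were Canx, the chaperone calnexin (1.16, adjusted p = 0.00282), Xbp1 (1.31, adjusted p = 0.018), a factor of secretory cells and of the IRE1 arm, and Sdf2l1 (0.80, adjusted p = 0.0408). With arrays left out in turn the count was 5 without Wnt1 replicate 3 or iFGFR1 replicate 2, and 2 without Wnt1 replicate 1, 4, 5 or 6, iFGFR1 replicate 3 or 4, or iR2 replicate 3. Canx rose in all receptor groups against Wnt1 tumours, by 0.93 in iFGFR2 (adjusted p = 0.0365) and by 1.04 in iR2 tumours (adjusted p = 0.014), and Xbp1 rose in iR2 tumours (1.25, adjusted p = 0.0389). With arrays left out in turn these calls were kept in 9, 16 and 10 of 18 fits, and that of Sdf2l1 in 11. Arrays of this kind do not separate spliced from unspliced Xbp1 mRNA.

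**Figure D4:**
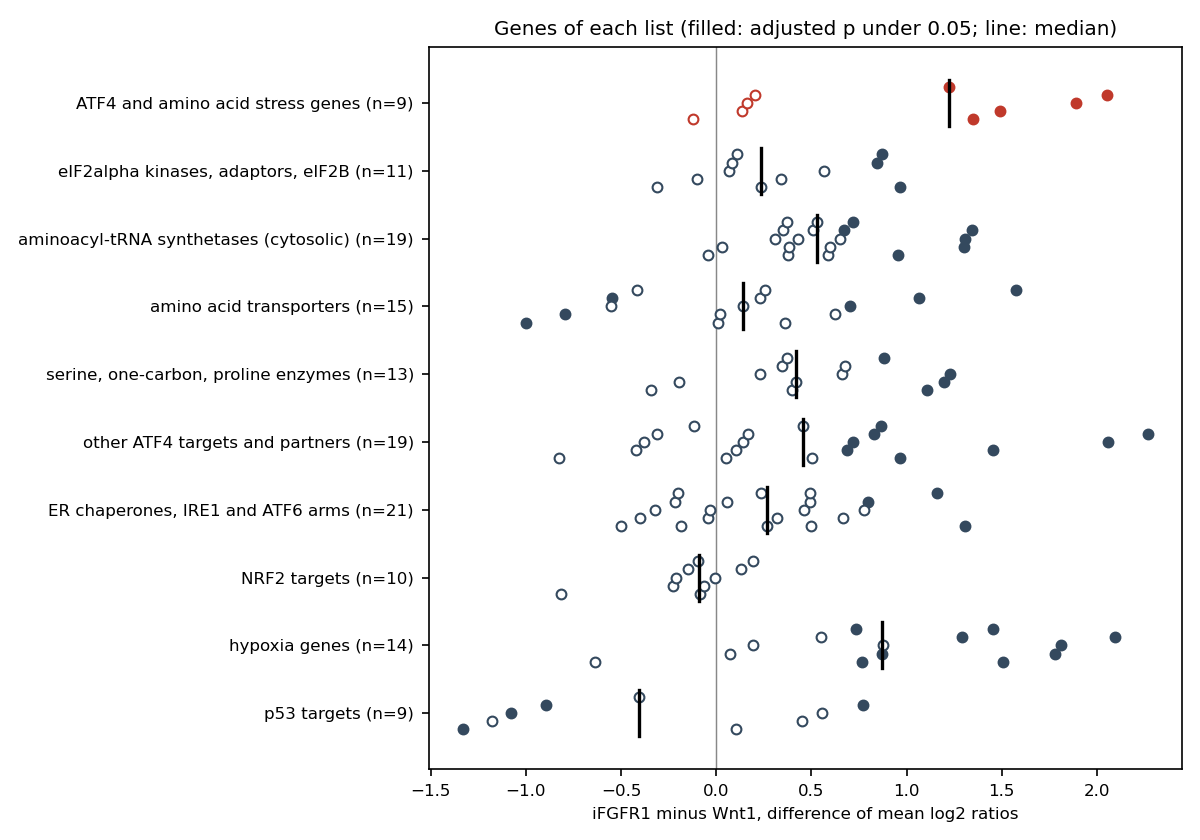
Difference of mean log2 ratios, iFGFR1 minus Wnt1, for each measured gene of the 9 stress genes and of 9 other lists (1 point per gene; filled, adjusted p under 0.05; line, list median). Medians run from -0.40 for p53 targets to 0.87 for hypoxia genes and 1.22 for the 9 stress genes, beside 0.02 over all genes.

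Low oxygen also induces Ddit4. Of 14 other hypoxia genes 9 were higher in iFGFR1 than in Wnt1 tumours and none was lower (median 0.87), beside 8.38% and 7.06% of all genes. The genes of smallest p were Car9, Bnip3, Egln3 and Adm, and each kept its call in 18 of 18 fits with an array left out. The higher count was 4 to 5 without Wnt1 replicate 1, iFGFR1 replicate 3 or iFGFR1 replicate 4, and 1 was lower without iFGFR1 replicate 4. It was 6 higher without Wnt1 replicate 3 or 4 and 11 without iFGFR1 replicate 2. With the title number as a covariate 3 were higher and 1 lower (median 0.57). Other lists moved with this covariate too: 4 of 19 synthetases, 6 of 19 other ATF4 targets and 2 of 21 ER genes were higher. Of the other ATF4 targets 1 was then lower. The higher counts stayed at 3 of 11 eIF2 genes, 3 of 15 transporters and 4 of 13 serine and one-carbon enzymes. The list mean was 0.79 (0.27 to 1.31) in iFGFR1 and -0.17 (-0.66 to 0.32) in Wnt1 tumours. Against iFGFR2 tumours 3 of the 14 were higher in iFGFR1 tumours (median 0.96), beside 0.924% of all genes higher and 1.21% lower. Against iR2 tumours 7 were higher (median 0.90), beside 6.84% higher and 4.81% lower. With arrays left out these higher counts were 1 to 4 and 5 to 8. In iFGFR2 and iR2 against Wnt1 tumours none passed, beside 1.97% and 3.91% of all genes higher and 1.46% and 3.19% lower. NRF2 is a factor that also drives Slc7a11. Its list of 10 measured genes held targets, Nfe2l2, which encodes NRF2 itself, and Keap1, its inhibitor. Of these 10 genes, 0 passed limma's test in iFGFR1 against Wnt1 tumours (median -0.09). At an unadjusted p under 0.05 there was 1, beside 5039 of all 16887 genes. Against iR2 tumours 2 of the 10 (Srxn1 and Gsr) were higher in iFGFR1 tumours and none lower, beside 6.84% and 4.81% of all genes. With an array left out Srxn1 kept its call in 18 of 18 fits and Gsr in 8.

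Markers of other cell types also passed the test in iFGFR1 against Wnt1 tumours, beside 8.38% of all genes higher and 7.06% lower. Of 8 fibroblast markers 6 were lower in iFGFR1 than in Wnt1 tumours, and their mean was -3.51 (-3.83 to -2.95) in iFGFR1 and -1.98 (-2.37 to -1.07) in Wnt1 tumours. Of 7 basal and myoepithelial markers 4 were lower and 1 higher. Of 8 luminal markers 3 were higher, with a mean of 2.75 (2.27 to 3.15) in iFGFR1 and 2.07 (1.41 to 3.13) in Wnt1 tumours.
Of 7 neutrophil markers 3 were higher and 1 lower, with a mean of -1.54 (-1.73 to -1.38) in iFGFR1 and -2.23 (-2.51 to -1.79) in Wnt1 tumours. Of 8 proliferation genes 4 were higher, with a mean of 0.73 (0.39 to 1.07) in iFGFR1 and 0.05 (-0.37 to 0.47) in Wnt1 tumours. Of 10 genes that respond to tissue handling none was higher and 1 was lower, with a mean of 0.35 in iFGFR1 and 0.32 in Wnt1 tumours. Of 4 B cell markers 2 were higher and none lower, with a mean of 0.04 (-0.13 to 0.22) in iFGFR1 and -0.37 (-0.68 to -0.18) in Wnt1 tumours. Of 7 T and NK cell markers 1 was higher, with a mean of -0.29 (-0.42 to -0.15) in iFGFR1 and -0.39 (-0.58 to -0.22) in Wnt1 tumours. Of 5 skeletal muscle markers 1 was higher, with a mean of -3.37 (-4.32 to -1.95) in iFGFR1 and -4.06 (-4.37 to -3.35) in Wnt1 tumours. No macrophage, endothelial or adipocyte marker of the lists passed limma's test. At an unadjusted p under 0.05 there were 2 of 6, 1 of 6 and 0 of 5, beside 5039 of all 16887 genes. The part of these cell types and states in the ATF4 results was not tested.

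**Figure D5:**
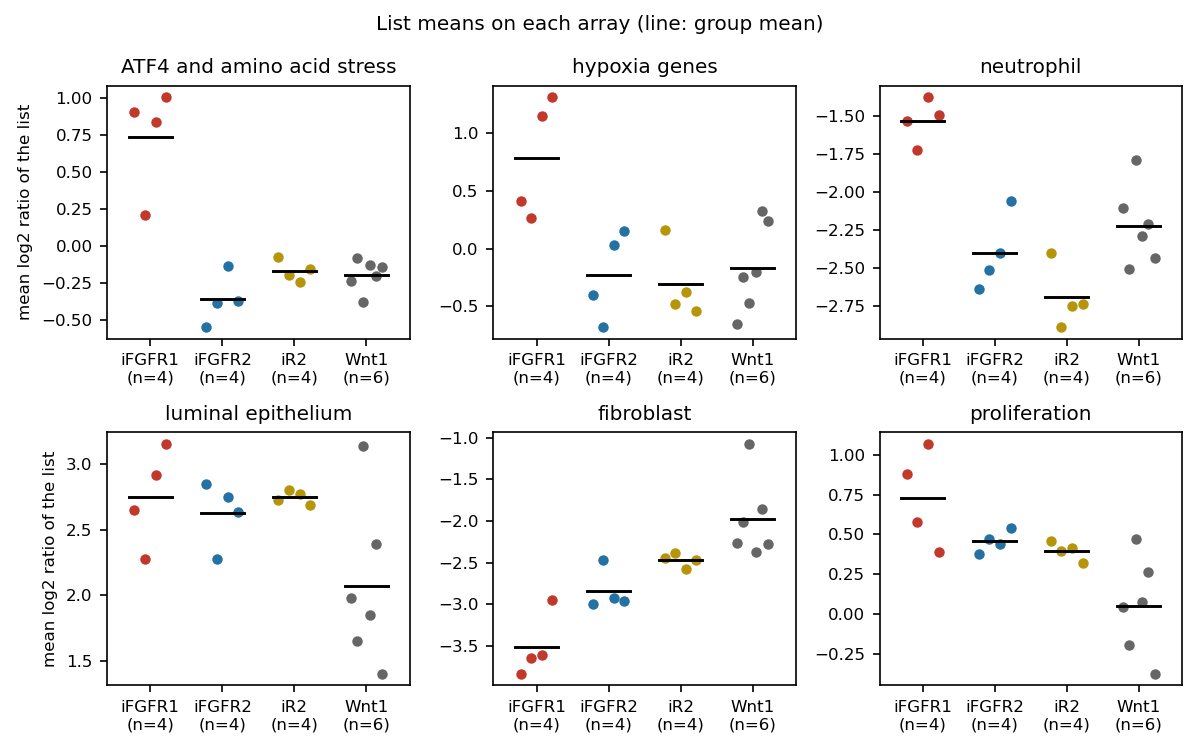
Mean log2 ratio on each array of the 9 ATF4 and amino acid stress genes, hypoxia genes and 4 marker lists, by tumour group (1 point per array; line, group mean). The stress genes lie at 0.21 to 1.004 in iFGFR1 tumours and below 0 in all others, the 4 iFGFR1 arrays are also the highest for neutrophil markers, and for fibroblast markers they are the lowest but for 1 that overlaps the iFGFR2 arrays.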

How the data were processed

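Per the labels, tumour RNA (Qiagen RNeasy) was labelled with Cy5 and whole-mouse reference RNA (TRIZOL) with Cy3. The authors deposited 1 normalized log ratio per feature and array, which was read as log2. No source used here gives the base, direction, scanner or normalization. The direction was taken from the dyes and the high luminal genes. Column medians lay between -0.023 and 0.009, no cell was empty and no arrays were identical. Depth does not apply to arrays, and their number limits the precision.

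Features with 1 platform symbol (18658) were averaged by symbol into 16887 genes; 3917 features with no or several symbols were left out. All 18 arrays entered 1 limma fit (version 3.58.1, R 4.3.3; lmFit and eBayes, 4 groups, no covariate), with Benjamini-Hochberg adjustment over all genes and a threshold of 0.05. Differences are of group means. Genes named from a list came from the 4 of smallest p in iFGFR1 minus Wnt1 and the 2 in each other comparison, but for Slc7a6. Not all of these are named in the text. All 10 stress genes, the 4 eIF2 kinases, Ppp1r15a, Atf3, Hspa5, Xbp1 and Eif4ebp1 were named beside them. Genes and lists were chosen with earlier results of these data known. Alternatives were centring, quantile normalization, scaling, array weights, other priors, feature choice, filter and threshold, fits on the compared groups, the title number as covariate and each array left out.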

Additional observations from a re-analysis of the deposited data

Results flagged for a closer look

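For 4 of 72 groups of arrays, over 18 genes, the highest or lowest array lay further from its neighbour, relative to the group's range, than Dixon's critical value (0.829 for 4 arrays, 0.625 for 6); chance flags about 1 in 20 groups. Ddit3 in iFGFR1 replicate 2 had a gap of 0.86 of the range, and Eif4ebp1 in the same tumour a gap of 0.93, both on the low side. Ddit4 in Wnt1 replicate 3 had a gap of 0.887, also low. Slc7a11 in iFGFR2 replicate 4 had a gap of 0.862, low as well.

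The effect on 4 genes differed between receptor groups by a direct test. In iFGFR1 minus iFGFR2 tumours the differences were 2.23 for Chac1, 1.3 for Asns, 1.48 for Phgdh and 1.83 for Psat1. In iFGFR1 minus iR2 tumours they were 2.01 for Chac1, 1.303 for Asns, 1.95 for Phgdh and 2.01 for Psat1. Each set passed limma's test at an adjusted p under 0.05, as given above.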

How the results depend on the processing

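The 5 calls in iFGFR1 minus Wnt1 tumours were kept under every alternative. In iFGFR2 minus Wnt1 the count of 0 became 1 (Ddit4) with the term for the 5 arrays of narrow spread, and 0 to 1 with arrays left out. For iFGFR1 and iFGFR2 against Wnt1 that term gives the same result as the fit without Wnt1 replicate 3. In iR2 minus Wnt1 the count of 1 became 2 with scaled arrays and with array weights (Atf4 and Phgdh). It became 0 at an adjusted p under 0.01 and with the title number as covariate (Atf4 1.998, adjusted p = 0.0696), and was 0 to 1 with arrays left out. The iR2 title numbers lie apart from all others, so that covariate can hardly be separated from iR2. With the narrow-spread term iR2 is set against Wnt1 replicate 3 alone, whose low Ddit4 is flagged above, and the Ddit4 difference was 3.35. For the mean of the 3 receptor groups 1 became 3 with array weights and 2 at 0.1 or without the 2 arrays singled out, and 1 to 2 with arrays left out. In iFGFR1 minus iFGFR2 the count of 4 became 2 at 0.01, 3 with only the compared arrays (Asns adjusted p = 0.145) and 2 to 5 with arrays left out. In iFGFR1 minus iR2 it was 2 with the title number (Chac1 and Phgdh), 3 with the narrow-spread term (Phgdh and Psat1 higher, Ddit4 lower) and 4 to 4 with arrays left out. In iR2 minus iFGFR2 the count of 0 became 1 with the narrow-spread term (Ddit4). Where iR2 is compared with another receptor group, the size of that term is set by Wnt1 replicate 3 alone against the other Wnt1 arrays. The F test gave 5 to 6 calls with arrays left out. Counts over all genes moved too with arrays left out: 2608 became 1750 to 3084 in iFGFR1 minus Wnt1, 579 became 99 to 1470 in iFGFR2 minus Wnt1, 1199 became 303 to 1883 in iR2 minus Wnt1, 2115 became 1221 to 2831 for the mean of the receptor groups, 360 became 183 to 530 in iFGFR1 minus iFGFR2, 1968 became 1172 to 2338 in iFGFR1 minus iR2 and 227 became 19 to 326 in iR2 minus iFGFR2. Further such shifts came with only the compared arrays (143 in iFGFR2 minus Wnt1, 2317 in iR2 minus Wnt1, 71 in iFGFR1 minus iFGFR2), scaled arrays (2797, 184 and 3235 in iR2 minus Wnt1, iFGFR1 minus iFGFR2 and iFGFR1 minus iR2, and 1588 in iR2 minus iFGFR2), array weights (5207 in iR2 minus Wnt1, 3457 for the mean, 202 in iFGFR1 minus iFGFR2, 1138 in iR2 minus iFGFR2, 6066 in the F test against 3311), quantile normalization (19 in iR2 minus iFGFR2), the title number (52 in iR2 minus Wnt1, 659 for the mean, 265 in iFGFR1 minus iR2, 2 in iR2 minus iFGFR2), the narrow-spread term (1414 in iFGFR2 minus Wnt1, 304 in iR2 minus Wnt1, 781 in iFGFR1 minus iR2) and the removal of both arrays singled out (2417 in iR2 minus Wnt1, 544 in iFGFR1 minus iFGFR2, 363 in iR2 minus iFGFR2). At thresholds of 0.01 and 0.1 the F test gave 1139 and 4969. The cause of these changes was not tested.

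Differences that changed sign were all uncalled. With array weights Ddit4 was -0.22 in iFGFR1 minus Wnt1, Phgdh -0.0005164 in iFGFR2 minus Wnt1, and Ddit4 -0.17 and Psat1 0.047 in iR2 minus Wnt1. With scaled arrays Asns was 0.032 in iFGFR2 minus Wnt1 and Chac1 -0.036 in iR2 minus Wnt1. With the title number Ddit4 was -0.73 in iFGFR1 minus Wnt1 and Asns 0.073 in iFGFR2 minus Wnt1. In iR2 minus Wnt1, where the title number can hardly be separated from the group, Chac1 was -0.26, Asns 0.45, Ddit3 -0.30, Ddit4 -2.5, Phgdh 0.012, Psat1 0.58 and Slc7a11 -0.057. Without both arrays singled out Ddit4 was -0.44 in iFGFR1 minus Wnt1, Phgdh -0.13 in iFGFR2 minus Wnt1, and Chac1 -0.052, Ddit4 -0.51 and Psat1 0.15 in iR2 minus Wnt1. With the narrow-spread term Ddit4 was -0.44 in iFGFR1 minus Wnt1, Phgdh -0.060 in iFGFR2 minus Wnt1, and Asns 0.44, Ddit3 -0.92 and Slc7a11 -0.25 in iR2 minus Wnt1.

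With single arrays left out, the range in iFGFR1 minus Wnt1 was -0.44 to 0.51 for Ddit4 and -0.40 to 0.030 for Slc7a11. In iFGFR2 minus Wnt1 it was -0.18 to 0.0071 for Asns, -0.14 to 0.019 for Sesn2, -0.060 to 0.12 for Phgdh, -0.14 to 0.32 for Psat1 and -0.17 to 0.18 for Slc7a11. In iR2 minus Wnt1 it was -0.12 to 0.14 for Chac1, -0.18 to 0.00485 for Asns, -0.078 to 0.27 for Ddit3, -0.51 to 0.32 for Ddit4, -0.29 to 0.15 for Psat1 and -0.0115 to 0.12 for Slc7a11. No paired analysis was possible because the replicate numbers follow the order of the records and pair no arrays.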

Other observations

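Some genes of the p53 response, which share Sesn2 and Ddit4 as targets with the stress response, were lower in iFGFR1 tumours. Of 9 p53 targets 3 were lower and 1 was higher in iFGFR1 than in Wnt1 tumours (median -0.40), beside 7.06% of all genes lower and 8.38% higher. Trp53inp1, a factor that promotes p53 activity, was at -0.47, -0.49, -0.38 and -0.68 in iFGFR1 tumours and between -0.22 and 0.94 in Wnt1 tumours, and fell by 1.08 (SE 0.19, limma adjusted p = 0.00109). Zmat3, an RNA-binding target of p53, fell by 1.33 (SE 0.27, adjusted p = 0.00286). Both kept their calls with each array left out in turn. Phlda3 (-0.89, adjusted p = 0.0437) and Mdm2, the ligase that degrades p53 (0.77, adjusted p = 0.0305), kept theirs in 7 and 13 of 18 such fits. In iR2 tumours Sesn1, a relative of Sesn2, rose by 1.09 against Wnt1 tumours (adjusted p = 0.00367), with all 4 arrays above every Wnt1 array, while Sesn2 was not called.

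The promoter element printed above was also searched in the other lists. It was in 5 of 12 tRNA synthetase windows (41.7%) and in 6 of 16 windows of other ATF4 targets (37.5%), against 3.52% of all measured genes. It was in 2 of 10 amino acid transporter windows (20%) and in 1 of 11 windows of the serine and one-carbon list (9.09%). It was in none of the windows of the eIF2 (0 of 9), ER (0 of 17), NRF2 (0 of 7), hypoxia (0 of 13) and p53 (0 of 6) lists. Over the 9 other lists, 14 genes held the element, of which 1 (Got1) was higher in iFGFR1 than in Wnt1 tumours, with a median difference of 0.29. Of the 85 list genes with a window and no match, 28 were higher and 3 lower, with a median of 0.45. Both counts stand beside 8.38% of all genes higher and 7.06% lower. The 2 sets come from different lists, since the eIF2, ER, NRF2, hypoxia and p53 lists add genes only to the set without a match. The element and the list can therefore not be told apart here. These counts describe the lists and were not tested.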
